A study of Mus musculus with 24 samples.

Results

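The 10 genes described here encode SoxE transcription factors (Sox8, Sox9 and Sox10) and other factors of the neural crest (Foxd3, Snai1, Snai2, Twist1, Tfap2a and Tfap2b), with the receptor gene Pdgfra. They were chosen by name and make up 10 of the 21909 gene symbols in the RNAseq tables. The series comprises 24 samples of mouse cells and pairs RNAseq with ChIPseq and with Nucleolar-DamID, a method that marks DNA near the nucleolus and yields lists of nucleolus-associated domains (NADs). The RNAseq compares embryonic stem cells (ESCs) with neural progenitor cells (NPCs) derived from them, with 3 samples of each. ESCs were of the E14 line, kept in 2i medium with LIF, which holds them in the naive pluripotent state. NPCs came from the same line by 8 days of differentiation as embryoid bodies in medium with 10% fetal calf serum, and retinoic acid was present at 2 µM for the final 4 of those days. The labels give no further treatment for the RNAseq samples. For the DamID, E14-derived lines carried inducible H2B-Dam or its nucleolar form H2B-Dam-NoLS. Expression of the fusions was induced for 15 h by doxycycline (100 ng/ml) with Shield1 (1 µM), in ESCs and, on day 8, in NPCs, with 2 replicates of each.

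The neural crest arises at the border of the neural plate, where signals from BMP, Wnt and FGF ligands switch on border factors and then crest specifiers such as Foxd3, Snai2, Tfap2a, Sox9 and Sox10. Crest cells leave the neural tube by an epithelial-mesenchymal transition and give rise to Schwann cells and other glia, melanocytes, autonomic and sensory neurons, and cartilage and bone of the face. Many of these genes also act outside the crest: Sox9 in radial glia, cartilage and endoderm, Snai1, Twist1 and Pdgfra in mesoderm and mesenchyme, and Foxd3 in pluripotent cells.

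Of the 10 genes, 8 were higher in every NPC sample than in any ESC sample, and 2, Foxd3 and Tfap2a, were higher in every ESC sample than in any NPC sample. Twist1, Sox9, Snai1, Snai2 and Pdgfra were the 5 members that reached 1 RPKM (reads scaled to gene length and to library size) in NPCs, and Foxd3 was the only member to do so in ESCs. Such a separation was common, and held for 72.9% of the 18217 genes above 0 in any sample. The tested genes were those with at least 1 RPKM in 3 or more of the 6 samples, and 70.2% of these 7757 genes were called by limma at an adjusted p under 0.05, with 37.0% higher and 33.1% lower in NPCs. Among the members 6 passed that filter, and 5 were called higher and 1 lower. Each of these 6 passed through the group where it was high and so had to differ. Of all 7757 tested genes, 1340 were likewise under 1 RPKM in every ESC sample and 546 in every NPC sample. For such genes the call adds nothing to the levels, and counts of calls and medians of lists below are to be read with that limit. Sox8, Sox10, Tfap2a and Tfap2b stayed under the filter and are given by their values. For each of the 10 genes alone the two-sided exact permutation test over 3 against 3 samples gave p = 0.10, the smallest p it can give.

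**Figure D1:**
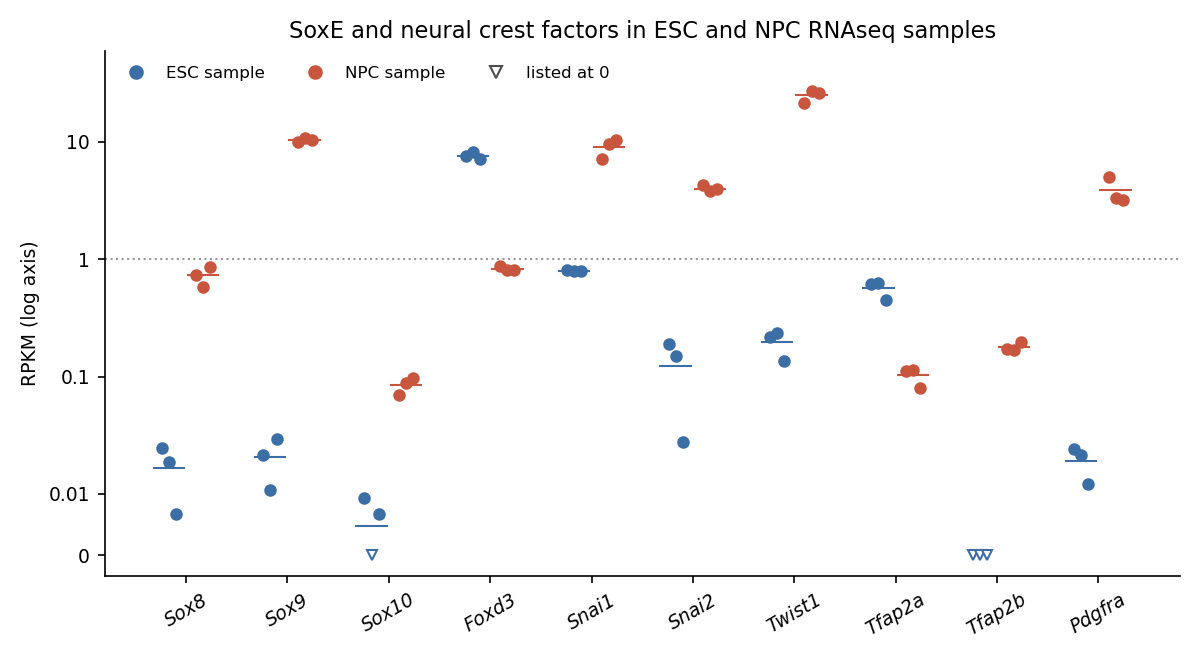
RPKM of the 10 genes (log axis) in each of the 3 ESC and 3 NPC samples, 1 point per sample, with short lines at group means, a dotted line at 1 RPKM and open triangles for samples listed at 0. Foxd3 and Tfap2a lie higher in ESCs, and the other 8 genes lie higher in NPCs.

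ESC and NPC values were deposited in separate tables with no batch stated, so cell type and any difference in handling between the tables cannot be told apart. ESC replicate 3 stood apart from the other ESC samples. Across the tested genes its log2 values correlated with ESC replicates 1 and 2 at r = 0.963 and 0.966, against 0.999 between those replicates and 0.996 to 0.999 among NPC samples (across genes, which are not independent replicates). Relative to the mean of ESC replicates 1 and 2 its median log2 difference was 0.38 over 1215 genes spanning under 5 kb and -0.21 over 3276 genes spanning 20 kb or more. ESC replicate 3 was the lowest ESC sample for 6 of the 9 members above 0 in any ESC sample, and for 50.0% of the genes tested. Without it 87.8% of tested genes were called, and the same 6 members among them.

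The values were scaled by the length of the whole gene span, introns included. Multiplied by the GENCODE M21 gene span, 97.9% to 98.1% of low values in each sample lay within 0.1 of a whole multiple of a single step. With summed exon length that share was 22.3% to 24.4%. If a step is 1 read, the samples hold about 34100000, 33700000 and 30800000 reads in ESC replicates 1 to 3 and 30100000, 27300000 and 32300000 reads in NPC replicates 1 to 3. The tables themselves state no read totals. If the counted reads lie in exons, levels of genes with long introns are low on this scale. Where those reads lie was not tested. An expression per summed exon length was added after seeing the data and rests on that assumption. All values below are per gene span unless the sentence names exon length.

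Sox9 is a high-mobility-group transcription factor that is needed for crest survival and cartilage and is also made in radial glia. Its gene lies at chr11:112782224-112787760 (GRCm38, plus strand). It was measured at 0.0212, 0.0107 and 0.0293 RPKM in ESC replicates 1 to 3 and at 9.92, 10.8 and 10.5 RPKM in NPC replicates 1 to 3. All 3 NPC samples were high and close together, and all 3 ESC samples were near 0, at 4, 2 and 5 steps of the scale. The means, 0.0204 ± 0.00934 and 10.4 ± 0.469 RPKM (SD, n = 3 each), were 510-fold apart. In limma the difference of log2(RPKM + 1) was 3.48 (SE 0.07, adjusted p = 1.87e-07), higher in 3 of 3 NPC samples. The size depends on the value added before the logarithm: it was 6.45 with 0.1 in place of 1, and 6.72 after rescaling to a larger fixed sum, which lessens the weight of the 1. In bulk RNA, a change in the number of cells that make an RNA and a change in the RNA per cell cannot be told apart.

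Sox8 and Sox10, the other SoxE genes, were far lower. Sox8, which acts with its relatives in glia and crest, was at 0.0245, 0.0186 and 0.00678 RPKM in ESCs and at 0.740, 0.581 and 0.865 RPKM in NPCs. Its NPC samples all lay above its ESC samples but none reached 1 RPKM. The gene overlaps 2810468N07Rik on the other strand, and since strand use is not stated for the tables, its reads are uncertain.

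Sox10, which maintains crest stem cells and directs their glial and melanocyte fates, was at 0.00920, 0 and 0.00678 RPKM in ESCs and at 0.0693, 0.0881 and 0.0970 RPKM in NPCs. These NPC values correspond to 20, 23 and 30 steps, against 3, 0 and 2 in ESCs, so that the groups did not overlap although all 6 values were under 0.1 RPKM. Per summed exon length the NPC means were 13.9 ± 0.628 for Sox9, 1.12 ± 0.219 for Sox8 and 0.287 ± 0.0479 for Sox10 (RPKM, SD, n = 3). The steps of Sox10 were whole numbers with its RefSeq span of 9578 bases and not with the GENCODE span of 10333 bases used for that mean. Taken from the RefSeq span the exon-scaled mean was 0.266 ± 0.0444 RPKM. The order Sox9, Sox8, Sox10 was the same on both scales, and the NPC samples of these 3 genes did not overlap.

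Snai1 and Snai2 are zinc finger repressors of Cdh1 and drivers of the epithelial-mesenchymal transition, Snai1 being required in gastrulating mesoderm and Snai2 marking premigratory crest in birds. Snai1 was at 0.807, 0.796 and 0.802 RPKM in ESCs and at 7.19, 9.56 and 10.4 RPKM in NPCs. Its ESC values were nearly equal and its NPC values more spread, with NPC replicate 1 the lowest. The means of 0.802 ± 0.00580 and 9.04 ± 1.66 RPKM (SD, n = 3) were 11.3-fold apart, and limma gave a difference of 2.46 (SE 0.13, adjusted p = 6.24e-06) with 3 of 3 NPC samples higher. After rescaling to the larger fixed sum the difference was 3.73.

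Snai2 was at 0.191, 0.151 and 0.0275 RPKM in ESCs and at 4.29, 3.79 and 3.96 RPKM in NPCs. The groups were well separated, and ESC replicate 3 was the low sample within its group. The means were 0.123 ± 0.0850 and 4.01 ± 0.253 RPKM (SD, n = 3), a 32.6-fold difference, with a limma difference of 2.16 (SE 0.08, adjusted p = 9.26e-07) and 3 of 3 NPC samples higher. It was 4.29 with an added value of 0.1 and 4.57 at the fixed sum. Snai1 exceeded Snai2 in every sample, both per gene span and per summed exon length, where the NPC means were 25.8 ± 4.72 and 7.02 ± 0.443 RPKM.

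Twist1, a basic helix-loop-helix factor of cranial crest and head mesenchyme, was at 0.218, 0.234 and 0.135 RPKM in ESCs and at 21.7, 27.2 and 26.0 RPKM in NPCs. It had the highest NPC mean of the 10 genes on both length scales. Group means were 0.196 ± 0.0526 and 25.0 ± 2.88 RPKM (SD, n = 3), 128-fold apart, with a limma difference of 4.44 (SE 0.11, adjusted p = 2.17e-07) and 3 of 3 NPC samples higher. At the fixed sum the difference was 6.76. Its relative Twist2 had a mean of 0.0795 RPKM in NPCs, and 1.17 ± 0.0926 RPKM per summed exon length (a gene chosen after its values were seen).

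Pdgfra encodes the receptor for PDGF-A that guides cranial crest and marks much of the early mesenchyme and primitive endoderm. It was at 0.0243, 0.0213 and 0.0120 RPKM in ESCs and at 5.06, 3.32 and 3.21 RPKM in NPCs. NPC replicate 1 was the highest for this gene, while it was the lowest NPC sample for Sox9, Sox10, Snai1 and Twist1. Means were 0.0192 ± 0.00640 and 3.86 ± 1.04 RPKM (SD, n = 3), 201-fold apart, and limma gave 2.23 (SE 0.14, adjusted p = 1.51e-05) with 3 of 3 NPC samples higher. The difference was 5.03 with an added value of 0.1, 5.28 at the fixed sum and 4.07 per summed exon length. The span of 45924 bases holds 10024 bases of exon, and per summed exon length the NPC mean was 17.7 ± 4.77 RPKM. Antisense genes Gm42802 and Gm42803 and the microRNA gene Mir7025 lie within the span, so part of these reads is uncertain.

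Foxd3 is a forkhead repressor that maintains pluripotent cells and, later, crest progenitors. It was at 7.65, 8.14 and 7.16 RPKM in ESCs and at 0.871, 0.805 and 0.813 RPKM in NPCs. Every ESC sample lay above every NPC sample, and the NPC samples were still close to 1 RPKM. The means of 7.65 ± 0.491 and 0.830 ± 0.0359 RPKM (SD, n = 3) were 9.22-fold apart, with ESCs higher. In limma log2(RPKM + 1) fell by 2.24 (SE 0.07, adjusted p = 7.17e-07), lower in 3 of 3 NPC samples. The gene has a single exon of 2324 bases, so both length scales coincide, and it shares its position with the small RNA gene Gm23366.

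Tfap2a and Tfap2b encode AP-2 factors that specify the neural plate border, crest and surface ectoderm. Tfap2a was at 0.615, 0.628 and 0.453 RPKM in ESCs and at 0.112, 0.114 and 0.0805 RPKM in NPCs. Both groups were under 1 RPKM, with ESCs higher in every sample and 5.52-fold higher by the means. On the exon scale Tfap2a passed the filter, with means of 2.66 ± 0.458 RPKM in ESCs and 0.482 ± 0.0892 RPKM in NPCs (SD, n = 3), and limma gave -1.30 (SE 0.11, adjusted p = 4.25e-05). It passed through ESCs alone and so had to differ. On that scale 72.7% of 11809 genes were called, 5086 higher and 3499 lower, and 1841 of those tested were under 1 RPKM in every ESC sample and 592 in every NPC sample. Counts per exon length below carry the same limit. The genes Gm47061, Gm26688 and Gm47067 lie on the other strand within its span, which makes its reads uncertain.

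Tfap2b was listed at 0 in all 3 ESC samples and was at 0.173, 0.167 and 0.195 RPKM in NPCs. The NPC values were close together and correspond to 155, 135 and 187 steps over a span of 29663 bases. Scaled by exon length, the NPC mean was 0.835 ± 0.0694 RPKM. The genes of the family thus stood in opposite order, Tfap2a being the higher in ESCs and Tfap2b in NPCs. With every gene above 0 in any sample admitted, 62.4% of 18217 genes were called, and Sox8, Sox10, Tfap2a and Tfap2b among them. Those limma differences were 0.76 for Sox8, 0.11 for Sox10, -0.50 for Tfap2a and 0.24 for Tfap2b.

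Per gene span, the NPC means descended from Twist1 through Sox9, Snai1, Snai2, Pdgfra, Foxd3, Sox8, Tfap2b and Tfap2a to Sox10. Samples overlapped between the neighbours Sox9 and Snai1, Snai2 and Pdgfra, Foxd3 and Sox8, and Tfap2a and Sox10, which do not differ beyond their spread. Per summed exon length the order of NPC means was Twist1 (33.1 ± 3.81 RPKM), Snai1, Pdgfra, Sox9, Snai2, Sox8, Tfap2b, Foxd3, Tfap2a and Sox10. Pdgfra thereby passed Sox9 and Snai2, and Tfap2b, at 0.835 RPKM, came level with Foxd3, at 0.830 RPKM. On this scale the samples overlapped between Twist1 and Snai1, Snai1 and Pdgfra, Sox8 and Tfap2b, and Tfap2b and Foxd3, and Pdgfra exceeded Sox9 by less than its SD. In ESCs, per summed exon length, Foxd3 (7.65 RPKM) led Tfap2a (2.66 RPKM) and Snai1 (2.28 RPKM), and the other 7 genes had means of 0.259 RPKM or less.

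**Figure D2:**
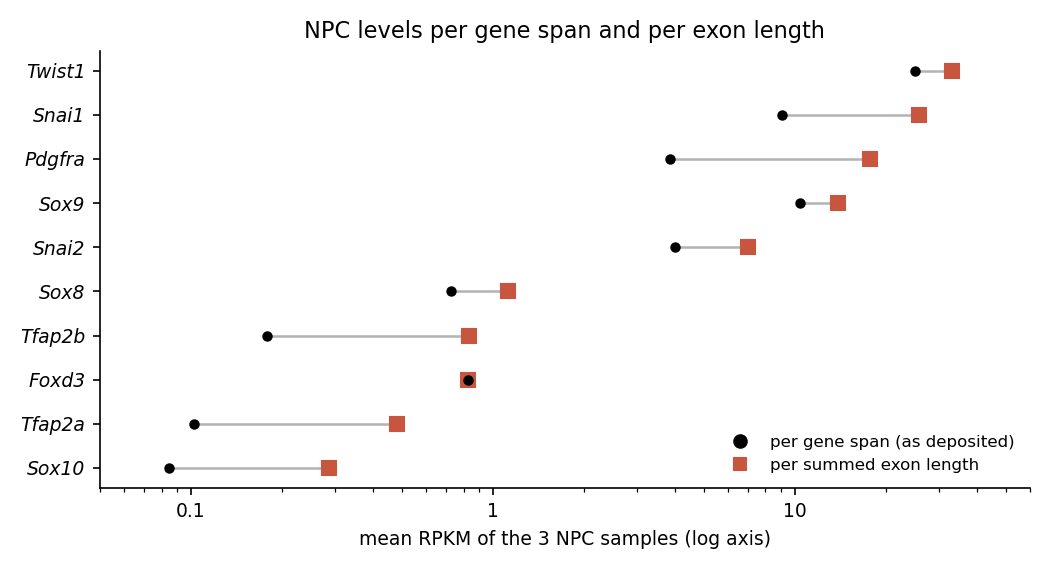
Mean RPKM of the 3 NPC samples (log axis) for each of the 10 genes, per gene span as deposited (black circles) and per summed exon length (red squares). The gap is widest for genes with long introns, such as Pdgfra, which moves from 3.86 to 17.7 RPKM.

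Over the 6 samples Sox9 was the SoxE gene with a mean of at least 1 RPKM, and the genes with the most similar values were Tmem119, Mmp2 and Car14, at Euclidean distances of 0.163, 0.215 and 0.236 in log2(RPKM + 1). Tmem119 was at 10.5, 10.0 and 9.79 RPKM in NPC replicates 1 to 3. Mmp2, which encodes a matrix protease, was at 11.1, 10.3 and 10.0 RPKM. Car14, a carbonic anhydrase gene, was at 11.6, 9.94 and 10.2 RPKM. All of them were under 0.1 RPKM in every ESC sample.

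Upstream of these genes stand the inducing ligands. Of 9 ligand genes, 2 were tested, both through NPCs alone, and both were called higher there, against 2872 higher and 2571 lower among all 7757 genes tested, whose median difference was 0.03. Bmp4 went from 0.624 ± 0.0632 to 3.49 ± 0.0278 RPKM (SD, n = 3) and Bmp7 from 0.118 ± 0.00509 to 1.07 ± 0.0549 RPKM. Per gene span Wnt3a, Wnt8b, Fgf8 and Gdf7 were under 0.1 RPKM in all 6 samples. Wnt1 was listed at 0 in ESCs and at 0.933, 1.32 and 1.77 RPKM in NPC replicates 1 to 3, and missed the filter through NPC replicate 1. Mean RPKM in ESCs and NPCs was 0.00274 and 1.02 for Gdf6 and 0.00641 and 0.579 for Bmp2. Wnt1, Gdf6 and Bmp2 were chosen after their values were seen. On the exon scale 5 ligand genes were tested and 5 called higher.

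The factors of the neural plate border, which precede the crest specifiers, were split. Of 18 such genes 9 were tested, 5 called higher and 4 lower, with a median difference of 1.19. All 5 of the higher genes passed the filter through NPCs alone and 2 of the lower through ESCs alone. The homeobox gene Msx3 went from 0.0316 ± 0.0122 to 7.58 ± 1.22 RPKM and Msx1 from 0.217 ± 0.0565 to 4.64 ± 0.754 RPKM. Tfap2c, a close relative of Tfap2a, fell from 5.28 ± 1.31 to 0.0791 ± 0.0227 RPKM (SD, n = 3 each). Pax3 and Pax7, which mark the dorsal neural tube and crest, had span-scaled NPC means of 0.132 and 0.140 RPKM, and per summed exon length 2.05 ± 0.392 and 2.31 ± 0.623 RPKM (both chosen after their values were seen). In RPKM per exon length 14 border genes were tested, 7 called higher and 7 lower.

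Of 21 further crest transcription factors, 12 were tested, 11 called higher (8 of the tested genes passed through NPCs alone) and 0 lower, with a median difference of 1.77. The orphan nuclear receptor gene Nr2f2 rose from 0.0524 ± 0.0179 to 34.5 ± 1.52 RPKM, and Id2, an inhibitor of helix-loop-helix factors, from 1.12 ± 0.157 to 70.1 ± 1.05 RPKM. The sum over the list was 33.0, 35.5 and 30.8 RPKM in ESCs and 305, 336 and 331 RPKM in NPCs, with Id3 the most abundant at 138.6 RPKM in NPCs. Sox5 and Sox6, partners of Sox9 in cartilage, span 954 and 568 kb and had span-scaled NPC means of 0.00889 and 0.0224 RPKM, against 0.590 ± 0.0339 and 0.859 ± 0.0846 RPKM per summed exon length. They too were chosen after their values were seen. For exon-scaled values 16 of these factors were tested, 14 called higher and 1 lower.

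Twist1 acts as a dimer with E proteins and is held back by Id proteins. In the list of 9 such partners 7 were tested, 6 called higher and 1 lower, with a median difference of 2.19. Among those tested, 2 passed the filter through NPCs alone. Id3 rose from 5.57 ± 0.518 to 138.6 ± 10.1 RPKM, and Id4 fell from 3.58 ± 0.454 to 1.15 ± 0.103 RPKM (SD, n = 3). Scaled by exon length, 8 were tested, 7 called higher and 1 lower.

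Genes of the epithelial-mesenchymal transition, in which Snai1, Snai2 and Twist1 act, numbered 17, of which 13 were tested, 8 called higher and 2 lower, with a median difference of 1.39. Among those tested, 2 passed the filter through NPCs alone and 1, Cdh1, through ESCs alone. Cdh1, the epithelial cadherin repressed by Snail factors in other systems, was at 13.3, 13.9 and 7.93 RPKM in ESCs and at 0.477, 0.423 and 0.428 RPKM in NPCs. It was lower in 3 of 3 NPC samples, and log2(RPKM + 1) fell by 3.11 (SE 0.20, limma adjusted p = 1.66e-05). Epcam, another epithelial gene, was at 2.80 ± 0.423 RPKM in ESCs and 1.86 ± 0.131 RPKM in NPCs, a log2 difference of -0.40. That call was lost on rescaling every sample to the mean summed RPKM (-0.10, limma adjusted p = 0.260), a setting chosen after seeing the data.

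Within the same list the keratin gene Krt18 rose from 0.800 ± 0.334 to 36.8 ± 0.0674 RPKM, and Mmp2 from 0.0707 ± 0.0168 to 10.5 ± 0.554 RPKM. Krt18 is an epithelial gene, so the genes that rose were not of the mesenchymal side alone. Per summed exon length all 17 genes were tested, 12 called higher and 2 lower. The mesenchymal cadherin gene Cdh2 then had means of 0.226 ± 0.0504 RPKM in ESCs and 20.6 ± 3.11 RPKM in NPCs (chosen after its values were seen). Fn1, a mesenchymal gene also chosen afterwards, was at 34.6, 34.5 and 10.4 RPKM in ESCs and at 11.81, 11.83 and 12.04 RPKM in NPCs. The groups overlapped through ESC replicate 3, and limma made no call (-0.91, adjusted p = 0.106), but without that sample Fn1 was called lower (-1.46, adjusted p = 5.83e-08). Vim, mesenchymal too and likewise chosen afterwards, was not called with all samples (0.21, adjusted p = 0.205) and was called higher without ESC replicate 3 (0.32, adjusted p = 0.00207).

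In the PDGF system 3 of 7 genes were tested, 2 called higher and 1 lower, with a median difference of 1.94. The 2 higher genes passed the filter through NPCs alone and the lower, Pdgfa, through ESCs alone, so each had to differ. The ligand gene Pdgfa and the receptor genes moved in opposite directions. Pdgfa was at 6.00, 6.50 and 10.1 RPKM in ESCs and at 0.463, 0.546 and 0.567 RPKM in NPCs, and log2(RPKM + 1) fell by 2.45 (SE 0.18, limma adjusted p = 2.86e-05, lower in 3 of 3 NPC samples). Pdgfrb, the other receptor gene, rose beside Pdgfra from 0.0722 ± 0.0102 to 3.12 ± 0.196 RPKM. The other ligand genes, chosen after their values were seen, were called higher per exon length, like the receptors. Their exon-scaled means in ESCs and NPCs were 6.66 ± 0.563 and 17.2 ± 0.228 RPKM for Pdgfc, 0.818 ± 0.0501 and 3.04 ± 0.0840 RPKM for Pdgfb, and 0.0224 ± 0.00484 and 1.4498 ± 0.134 RPKM for Pdgfd. On that scale 6 PDGF genes were tested, 5 called higher and 1 lower.

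Of 18 receptor, adhesion and retinoid-binding genes of crest cells, 8 were tested, 5 called higher and 1 lower, with a median difference of 1.71. The filter admitted 4 of these 8 through NPCs alone. Plxnd1, a semaphorin receptor gene, rose from 0.0257 ± 0.00763 to 5.71 ± 0.422 RPKM, and Crabp1, which binds retinoic acid, from 1.36 ± 0.679 to 13.6 ± 0.827 RPKM. Ngfr, the neurotrophin receptor used to sort crest cells, was at 2.84 ± 0.679 RPKM in ESCs and 1.39 ± 0.0108 RPKM in NPCs, and its call was lost on rescaling to the mean sum (-0.40, limma adjusted p = 0.121). Per gene span Cdh7, Cdh19, Rxrg and Itga4 were under 0.1 RPKM in all 6 samples, but per exon length Rxrg had an NPC mean of 1.05 ± 0.330 RPKM. On the exon scale 14 were tested, 9 called higher and 3 lower.

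Among 16 Sox genes outside the SoxE group 12 were tested, 8 called higher and 3 lower, with a median difference of 1.50. Of these 12 genes 7 passed the filter through NPCs alone and 1 through ESCs alone. Sox11 rose from 0.642 ± 0.0962 to 51.9 ± 2.48 RPKM and Sox4 from 0.661 ± 0.215 to 20.8 ± 2.74 RPKM. Sox2, shared by pluripotent and neural cells, fell from 150.9 ± 8.17 to 8.43 ± 1.55 RPKM, and Sox15 from 8.49 ± 1.76 to 0.0570 ± 0.0418 RPKM. By NPC means Sox9 stood above Sox2, at 10.4 RPKM per gene span and 13.9 RPKM per exon length. Sox2, a single-exon gene, was at 8.43 RPKM on both scales. The exon scale again tested 12 of these Sox genes, with 8 called higher and 3 lower.

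Genes of the cell types that crest cells form were mostly low per gene span, and several were at 5 RPKM or more per exon length. Of 15 glial and Schwann cell genes 1 was tested, Cnp, at 1.20 ± 0.0636 RPKM in ESCs and 0.772 ± 0.0985 RPKM in NPCs (a log2 difference of -0.31). It passed the filter through ESCs alone, and its call was lost on rescaling to the mean sum (-0.10, limma adjusted p = 0.251), while quantile normalization gave -0.76. The list summed to 2.38, 2.35 and 2.39 RPKM in ESCs and to 5.01, 5.79 and 5.24 RPKM in NPCs, with Fabp7 the most abundant in NPCs at 1.11 RPKM. Exon-scaled NPC means put Nfib (10.8 ± 1.60 RPKM), Slc1a3 (8.45 ± 0.4003 RPKM) and Nfia (7.81 ± 1.01 RPKM) above Fabp7 (3.16 ± 0.753 RPKM). Aldh1l1, an astrocyte gene, went the other way, from 14.0 ± 1.87 to 0.298 ± 0.0459 RPKM per exon length (-3.52, limma adjusted p = 3.93e-07). Nfib, Slc1a3, Nfia and Aldh1l1 were chosen after their values were seen. Per gene span S100b, Gfap, Aldh1l1 and Gjc3 were under 0.1 RPKM in all 3 NPC samples. Per summed exon length 9 were tested, 7 called higher and 2 lower.

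Of 7 melanocyte genes 2 were tested, both through ESCs alone, and 2 called lower. Kit fell from 5.15 ± 1.49 to 0.690 ± 0.0875 RPKM and Pmel from 2.13 ± 0.345 to 0.107 ± 0.0120 RPKM. Sums were 8.75, 8.57 and 6.69 RPKM in ESCs and 0.941, 0.757 and 0.777 RPKM in NPCs, where Kit was the most abundant. Kit had an exon-scaled NPC mean of 6.33 ± 0.803 RPKM. The defining genes Mitf, Dct, Tyr, Tyrp1 and Mlana were under 0.1 RPKM per gene span in all 3 NPC samples, with Mitf at 0.494 RPKM per exon length, and on the exon scale 4 melanocyte genes were tested and 4 called lower.

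Of 12 cartilage genes 2 were tested, both through NPCs alone, and 2 called higher. Col2a1, a target of Sox9 in cartilage, went from 0.706 ± 0.125 to 2.55 ± 0.280 RPKM, and Col9a2 from 0.0419 ± 0.0167 to 1.18 ± 0.161 RPKM. The list summed to 1.33, 1.34 and 1.22 RPKM in ESCs and to 5.22, 6.10 and 5.88 RPKM in NPCs, while Acan, Matn1, Matn3, Comp and Cnmd were under 0.1 RPKM per gene span in all 3 NPC samples. Exon-scaled NPC means were 8.03 ± 0.881 RPKM for Col2a1 and 6.08 ± 0.829 RPKM for Col9a2. They were 6.55 ± 0.408 RPKM for Hapln1 and 6.34 ± 0.337 RPKM for Col11a1, both chosen after their values were seen. On the exon scale 7 were tested, 6 called higher and 1 lower.

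Of 9 autonomic neuron genes 3 were tested, all through NPCs alone, and 3 called higher, among them Hand2, from 0.00890 ± 0.0154 to 3.60 ± 0.341 RPKM. Hand2 also acts in mesoderm, and its exon-scaled NPC mean was 5.59 ± 0.530 RPKM. Sums were 0.528, 0.617 and 0.518 RPKM in ESCs and 11.1, 11.6 and 12.4 RPKM in NPCs. The noradrenergic enzyme genes Th and Dbh were under 0.1 RPKM per gene span in all 3 NPC samples, with Th at 0.844 RPKM per exon length. On the exon scale 5 were tested and 5 called higher.

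**Figure D3:**
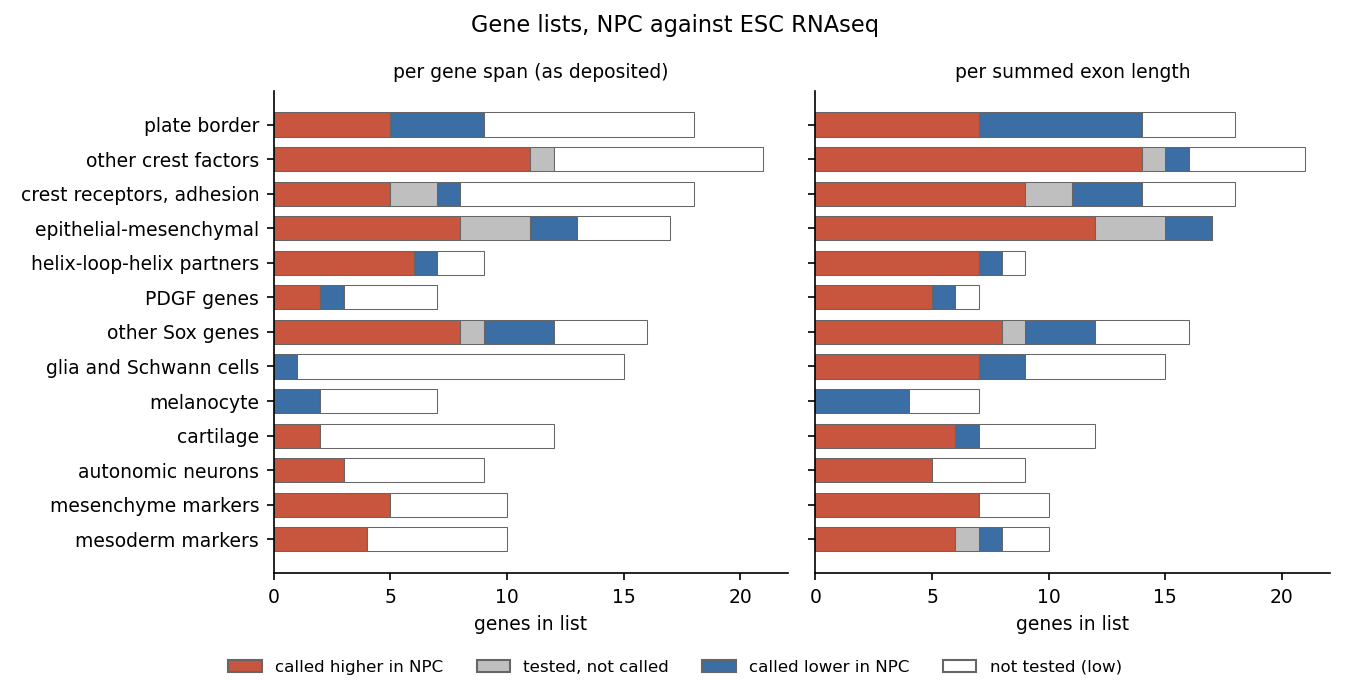
Number of genes in each list (horizontal axis) that limma called higher in NPCs, called lower, tested without a call, or left untested for low values, per gene span (left) and per summed exon length (right). Of the 15 glial genes 1 was tested per gene span and 9 per exon length.

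The labels of the cell types were checked against their markers. All 8 pluripotency genes were called lower in NPCs, and their sums were 1669.8, 1661.5 and 3526.2 RPKM in ESCs and 9.63, 9.49 and 8.94 RPKM in NPCs. Dppa5a was the most abundant in ESCs, at 1910.7 RPKM, and Pou5f1 fell from 155.9 ± 40.1 to 0.0532 ± 0.0135 RPKM. Of 8 neural progenitor genes 6 were tested, 4 called higher and 0 lower, with sums of 41.0, 42.6 and 49.9 RPKM in ESCs and 82.4, 86.6 and 89.0 RPKM in NPCs, most of it Vim. Nes rose from 3.46 ± 0.292 to 30.6 ± 1.79 RPKM, Hes5 from 0 to 3.19 ± 0.603 RPKM, and Pax6, the gene named in the label, had a mean of 1.55 RPKM in NPCs against 0.0115 RPKM in ESCs.

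Markers of other lineages that use the same factors were present in NPCs, and the part of such cells in the values of Twist1, Snai1, Sox9 and Pdgfra was not tested. In the mesenchyme, mesoderm, endoderm and endothelial lists every tested gene passed through NPCs alone, so the sums carry the information, and the calls and medians do not. Of 10 mesenchyme genes 5 were tested and 5 called higher, with sums of 0.186, 0.186 and 0.149 RPKM in ESCs and 50.8, 56.7 and 57.3 RPKM in NPCs. Col1a1 was at 19.1, 25.9 and 26.0 RPKM in NPCs, and Col3a1 at 21.2, 20.2 and 19.7 RPKM, while per exon length Col3a1 (79.2 ± 2.94 RPKM) exceeded Col1a1 (60.7 ± 10.1 RPKM). Lum and Dcn were under 0.1 RPKM per gene span in all 6 samples.

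Of 10 mesoderm genes 4 were tested and 4 called higher, with sums of 1.61, 1.70 and 1.77 RPKM in ESCs and 38.7, 37.6 and 33.3 RPKM in NPCs. Foxf1, a factor of lateral mesoderm, was listed at 0 in ESCs and at 29.1, 27.3 and 23.8 RPKM in NPCs, and Osr1 reached a mean of 4.28 ± 0.404 RPKM. The early mesoderm genes T and Mesp1, and Hand1, were under 0.1 RPKM in all 3 NPC samples.

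Of 9 endoderm genes 5 were tested and 5 called higher, with sums of 0.110, 0.140 and 0.0928 RPKM in ESCs and 18.0, 20.4 and 19.3 RPKM in NPCs. Gata6 was at 6.69 ± 0.337 RPKM and Gata4 at 5.90 ± 0.105 RPKM, but per exon length Gata4 (110.0 ± 1.97 RPKM) stood above Gata6 (34.5 ± 1.74 RPKM). Afp and Cubn were under 0.1 RPKM per gene span in all 3 NPC samples. Of 8 endothelial and blood genes 3 were tested and 3 called higher, with sums of 1.41, 1.35 and 1.04 RPKM in ESCs and 12.4, 16.0 and 18.2 RPKM in NPCs. The embryonic globin genes Hba-x and Hbb-bh1 led this list at 5.63 ± 1.31 and 5.55 ± 1.77 RPKM per gene span and were listed at 0 in ESCs. Exon-scaled, they had NPC means of 10.3 ± 2.397 and 13.8 ± 4.42 RPKM, beside Cdh5 at 11.3 ± 1.89 RPKM and Tie1 at 10.4 ± 0.543 RPKM (both chosen after their values were seen), and do not differ beyond their spread. Pecam1, an endothelial gene likewise chosen afterwards, went the other way, from 17.1 ± 2.33 to 6.70 ± 0.844 RPKM per exon length (-1.23, limma adjusted p = 2.32e-04). Ptprc, Gata1 and Tek were under 0.1 RPKM per gene span in NPCs, and Tek was at 2.55 RPKM per exon length.

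Of 8 neuron genes 3 were tested, 1 called higher and 2 lower, with sums of 13.2, 14.4 and 16.7 RPKM in ESCs and 10.9, 9.04 and 10.3 RPKM in NPCs. Stmn2 fell from 5.28 ± 1.10 to 0.306 ± 0.0220 RPKM. Nefl was at 1.92 ± 0.0934 RPKM in ESCs and 2.69 ± 0.259 RPKM in NPCs, and its call was lost after quantile normalization (0.19, limma adjusted p = 0.0889). Tubb3, the most abundant in NPCs, was at 7.28 ± 0.763 RPKM in ESCs and 4.15 ± 0.508 RPKM in NPCs, and its call was lost on rescaling to the mean sum (-0.33, limma adjusted p = 0.0541). Scaled by exon length, the counts tested, higher and lower were 8, 6 and 0 for neural progenitor genes, 8, 6 and 2 for neuron genes, 7, 7 and 0 for mesenchyme genes, and 8, 6 and 1 for mesoderm genes. They were 7, 7 and 0 for endoderm genes, 6, 4 and 1 for endothelial and blood genes, and 8, 0 and 8 for pluripotency genes. Of the genes tested per exon length, all 7 mesenchyme, 7 endoderm and 5 autonomic genes passed through NPCs alone, as did 6 mesoderm, 5 progenitor, 4 neuron and 4 endothelial or blood genes, and 6 pluripotency genes passed through ESCs alone. Among the genes tested per gene span, the median difference was 2.06 for mesenchyme, 2.13 for mesoderm, 1.93 for endoderm, 2.67 for endothelial and blood, and 2.19 for autonomic genes, and had to be positive by the filter. It was 1.03 for progenitor genes, 3 of 6 of which passed through NPCs alone, and -4.73 for pluripotency genes, 6 of 8 of which passed through ESCs alone. These medians are largely fixed by the filter and are not compared with the 0.03 of all genes tested. The neuron median of -0.69 rests on 3 genes, which kept their signs per exon length (-0.79 for Tubb3, -3.69 for Stmn2 and 0.38 for Nefl). With the 5 genes newly tested on that scale it was 1.49, but 4 of the 8 passed through NPCs alone. The exon-scaled neuron sums stayed lower in NPCs, at 85.3, 91.4 and 110.9 RPKM in ESCs and 56.9, 47.7 and 54.7 RPKM in NPCs.

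The direction of each of the 6 tested members held under every scaling tried. Each had passed the filter through the group where it was high, so this outcome was largely fixed and is a description. Rescaling each sample to the mean summed RPKM, which leaves the weight of the added 1 much as it was, is an alternative chosen after seeing the data. It moved the median of all tested genes to 0.33 and the split of called genes to 3630 higher and 1587 lower, against 2872 and 2571 as deposited. Median-ratio scaling moved that median to 0.18. Quantile normalization went the other way, to a median of -0.06, with 2640 genes called higher and 2970 lower. Relative to the median of all genes, the difference over mean-sum, median-ratio and quantile scaling lay between 4.34 and 4.38 for Twist1, 3.37 and 3.49 for Sox9, and 2.42 and 2.43 for Snai1. It lay between 1.91 and 2.08 for Snai2, 2.096 and 2.147 for Pdgfra, and -2.47 and -2.28 for Foxd3. Rescaling to a common sum also took the calls of Epcam, Ngfr, Cnp and Tubb3, and none of these genes turned direction.

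The position of the genes was compared with the NAD lists, in which each domain carries a deposited score derived from the log2 ratio of nucleolar Dam over control Dam signal. The lists hold 1769 domains in ESCs and 1447 in NPCs. The paper took as NADs only peaks shared by both replicates, so a region outside them can still hold an unshared peak. No values per replicate are given, so the overlap is a description. In ESCs 2 of the 10 members, Snai2 and Twist1, lay in a NAD, beside 26.9% of 21491 genes with a position. In NPCs 1 member, Snai2, did, beside 21.5% of these genes.

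Twist1, at chr12:33957671-33959829, lay in an ESC domain of 2799 kb, chr12:32700531-35499688, with a score of 0.0225 against a list median of 0.0256. In NPCs the nearest domain, chr12:34100478-34600398, began 141 kb away, a gap little above the 100 kb resolution at which the authors analysed the DamID. Snai2, at chr16:14705852-14709385, lay in an ESC domain of 700.0 kb with a score of 0.0257 and in an NPC domain of 398 kb with a score of 0.0271, where the NPC list median was 0.0413. Both genes were called higher in NPCs, Twist1 without and Snai2 with a NAD over it there.

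**Figure D4:**
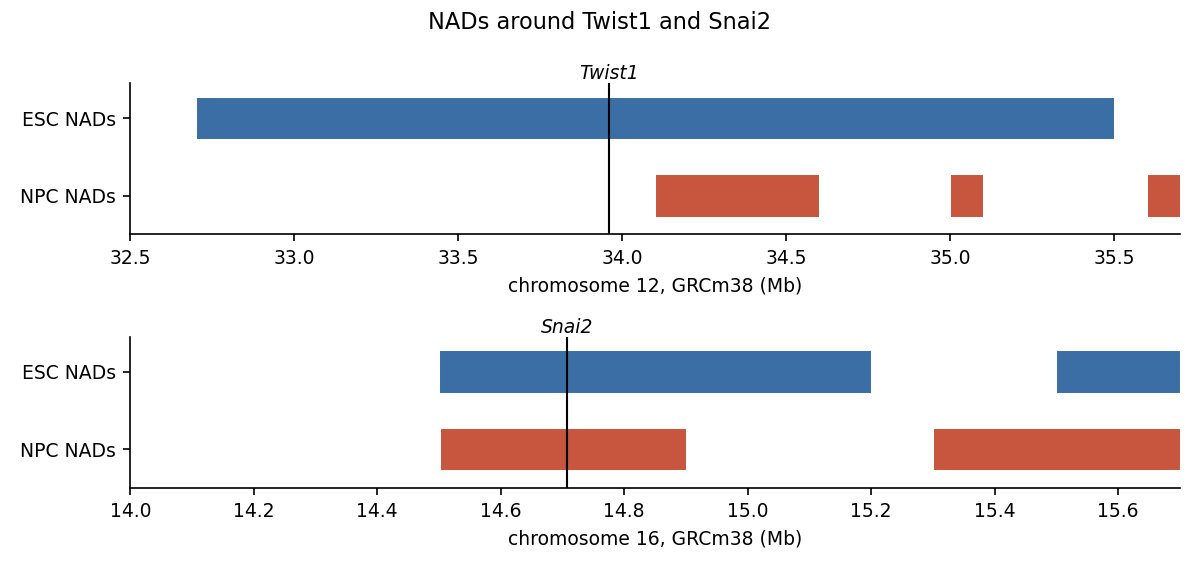
Deposited NADs of ESCs (blue) and NPCs (red) around Twist1 on chromosome 12 and Snai2 on chromosome 16, with position in Mb of GRCm38 on the horizontal axis and a black line at the gene. Twist1 lies in a domain in ESCs and outside domains in NPCs, and Snai2 lies in a domain in both.

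The other 8 members lay outside NADs in both cell types, at distances from 41.4 kb to several Mb. Gaps under the 100 kb resolution of the DamID are not resolved by the domains. Foxd3 lay 41.4 kb from the nearest domain in ESCs and in NPCs. Pdgfra lay 52.8 kb away in ESCs and 552 kb away in NPCs, and Tfap2b 61.4 kb and 162 kb. Snai1 was the most distant, at 6438 kb in both. Counted after widening each gene by 100 kb on each side, 5 members (39.5% of all genes) touched a domain in ESCs and 2 members (32.0% of all genes) in NPCs. With NADs of at least median score alone, 1 member (16.4% of all genes) lay in a domain in ESCs and 0 members (12.3% of all genes) in NPCs.

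Promoter windows from RefSeq (GRCm38.p6) were used for 7 of the 10 genes, 8 windows in all, and windows of Sox9, Sox10 and Snai2 were not analysed here. The windows were read as the 250 bases before the transcription start. The windows of Snai1, Twist1, Foxd3 and Pdgfra are shown because these are the 4 tested members with a window used here, and they include Foxd3, which fell. The windows are chr2:167537945-167538194 for Snai1, chr12:33957421-33957670 for Twist1, chr4:99656049-99656298 for Foxd3 and chr5:75152001-75152250 for Pdgfra, all on the plus strand. Capitals mark matches to CANNTG, the E-box that helix-loop-helix factors such as Twist1 bind.
Snai1: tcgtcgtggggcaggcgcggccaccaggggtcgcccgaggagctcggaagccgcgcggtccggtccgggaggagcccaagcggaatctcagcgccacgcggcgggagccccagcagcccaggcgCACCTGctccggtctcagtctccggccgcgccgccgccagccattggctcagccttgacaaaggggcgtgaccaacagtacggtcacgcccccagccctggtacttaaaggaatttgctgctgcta
Twist1: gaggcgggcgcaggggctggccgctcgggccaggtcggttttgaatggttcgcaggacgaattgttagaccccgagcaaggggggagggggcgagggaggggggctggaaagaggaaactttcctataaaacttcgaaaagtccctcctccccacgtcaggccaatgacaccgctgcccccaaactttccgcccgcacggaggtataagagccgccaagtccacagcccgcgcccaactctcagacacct
Foxd3: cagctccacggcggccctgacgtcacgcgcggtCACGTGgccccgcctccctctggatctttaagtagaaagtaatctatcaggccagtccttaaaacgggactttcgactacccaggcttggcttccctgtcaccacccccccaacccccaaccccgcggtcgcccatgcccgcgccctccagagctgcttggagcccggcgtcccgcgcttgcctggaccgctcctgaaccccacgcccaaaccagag
Pdgfra: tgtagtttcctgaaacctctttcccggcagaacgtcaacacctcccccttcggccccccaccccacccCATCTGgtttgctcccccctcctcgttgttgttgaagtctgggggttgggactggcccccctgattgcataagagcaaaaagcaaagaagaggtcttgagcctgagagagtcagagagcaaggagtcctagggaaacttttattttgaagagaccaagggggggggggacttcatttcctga

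The E-box CANNTG was found in 66.2% of all 32851 promoter windows of that length and in 3 of these 4. The Snai1 match reads CACCTG, the reverse complement of CAGGTG, the E-box form that Snail factors bind, and CAGGTG on either strand, which CANNTG includes, was found in 17.2% of all windows. The other matches were CACGTG in Foxd3 and CATCTG in Pdgfra, and the Twist1 window held no CANNTG. The Sox motif ACAAAG, present in 16.5% of windows on either strand, and the AP-2 motif GCCNNNGGC, present in 13.7%, each occurred once in the Snai1 window and in no other member window. The Sox motif ACAATG, present in 10.7% of windows, was in no member window. GC content was 70% for Snai1, 65.6% for Foxd3, 62.4% for Twist1 and 54.4% for Pdgfra, against a median of 52.4%. A match describes letters in the window and not a bound site.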

How the data were processed

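RNAseq of 3 ESC and 3 NPC samples (poly(A) RNA, single-end reads) was used as the RPKM values deposited by the authors, made per sample on mm10. The authors describe exon coverage. The length that fits the deposited values is the whole gene span, for 97.9% to 98.1% of low values in each sample. Summed exon length fits 22.3% to 24.4% of them. Whether reads in introns were counted was not tested. NAD lists of each cell type carry 1 score per domain as deposited, made by the authors by comparing nucleolar H2B-Dam-NoLS with H2B-Dam on a log2 scale. Symbols on several lines (153) were left out, leaving 21756. Values were taken as log2(RPKM + 1) and fitted with limma 3.58.1 (R 4.3.3; lmFit, eBayes with trend) over 7757 genes with at least 1 RPKM in 3 or more samples, with Benjamini-Hochberg adjustment over them and calls at an adjusted p under 0.05. The fit was tested on simulated data, and no outcome of that test is used here. Gene spans, summed exon lengths and overlaps came from GENCODE M21, with RefSeq spans as a check. Named genes were the 10 members, per list up to 2 called genes for each direction, by size of the difference, the most abundant gene of each list, and the 3 genes nearest to a SoxE gene with a mean of at least 1 RPKM. The members and lists were chosen with earlier results of these data known. The labels and the study's methods name different library kits, so strand use is uncertain. ChIPseq was not used here. A few genes named by the rule are not reported here.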

Additional observations from a re-analysis of the deposited data

How the results depend on the processing

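The 6 tested members passed the filter through the group where each was high, so their calls were largely fixed beforehand. Over 17 other settings (pseudocount, filter, scaling, trend, replicate block, leaving out each sample, exon length) the 6 tested members kept their direction and stayed past the threshold. Their sizes moved, most with pseudocount and scaling: over all settings they ranged from 3.43 to 6.72 for Sox9, -3.06 to -1.96 for Foxd3, 2.36 to 3.73 for Snai1, 1.85 to 4.57 for Snai2, 4.28 to 6.76 for Twist1 and 2.06 to 5.28 for Pdgfra. Of 909 alternative values, those of other named genes included, 890 were labelled the same, 0 reversed and 9 became weaker. For a gene the same meant an unchanged direction and side of the threshold. Counts labelled the same were not all equal: genes called ran from 4568 to 6813 against 5443, and members called were 7 per exon length against 6. Values became weaker after rescaling to a fixed sum or to the mean sum (chosen after seeing the data) for Cnp (-0.19, -0.10), Epcam (-0.14, -0.10), Ngfr (-0.55, -0.40) and Tubb3 (-0.38, -0.33). Nefl (0.19) became weaker after quantile normalization. With no filter on low values, so that more genes were tested, 11366 genes and 10 members were called, with Sox8 at 0.76, Sox10 at 0.11, Tfap2a at -0.50 and Tfap2b at 0.24 (limma adjusted p from 1.29e-05 to 3.86e-04). For Sox8, Sox10 and Tfap2b no other setting was run. Per summed exon length, an alternative chosen after seeing the data, 8585 genes were called and Tfap2a reached -1.30 (its adjusted p ranged from 4.25e-05 to 3.86e-04 over its settings).

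Replicate numbers do not pair: deviations of the same number correlated across genes at 0.114, -0.085 and 0.031. With the replicate number as a block 5161 genes and 6 members were called. The block left the values at 3.48 for Sox9, -2.24 for Foxd3, 2.46 for Snai1, 2.16 for Snai2, 4.44 for Twist1 and 2.23 for Pdgfra. Leaving out 1 sample at a time gave 4568 to 6813 genes and 6 members. The values then ranged from 3.46 to 3.51 for Sox9, -2.28 to -2.20 for Foxd3, 2.37 to 2.60 for Snai1, 2.097 to 2.203 for Snai2, 4.37 to 4.53 for Twist1 and 2.06 to 2.33 for Pdgfra.

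Members in ESC NADs numbered 2, against 1 with NADs of at least median score, where fewer domains were used, and 5 with genes widened by 100 kb. Counting by transcription start gave 2.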

Other observations

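The RPKM values of a sample summed to 102848, 104639 and 138483 in ESC replicates 1 to 3 and to 84297, 85521 and 84921 in NPC replicates 1 to 3. The ratio of gene span to summed exon length had a median of 4.88 over 21454 symbols, with quartiles of 2.38 and 10.5. Levels of genes with long introns are low as deposited if the counted reads lie in exons, which was not tested. Values of genes with few steps on this scale, such as Sox10, are limited by depth.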
